A study of Mus musculus with 9 samples.

Results

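Regulatory T cells that carry or lack the transcription factors Thpok (gene Zbtb7b) and LRF (gene Zbtb7a) were compared inside the same animals. Each of 3 mice gave 2 RNA-seq libraries, of deficient cells and of sufficient cells, so 6 of the 9 libraries of the series entered the within-mouse differences. The mice were female, of the strain C56Bl6/129 mix, with the genotype LRFffThpokff Foxp3 Cre-YFP/X, and the cells came from spleen and lymph node. The deficient cells were sorted as YFP+MHCII- and the sufficient cells, called animal controls by the submitters, as YFP-MHCII-CD25hi. The remaining 3 libraries held YFP+MHCII- cells, the genetic controls, from 3 further mice with the genotype WT Foxp3 Cre-YFP/X and the same strain and tissues. Ages, cell numbers and pooling of animals are not given in the labels used here.

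Values are log2 CPM, counts scaled to a common library total, and 7589 of 13698 genes had a mean of at least 10 CPM over the 6 libraries of the 3 mice. Every count below is over these 7589 genes unless stated. By their mean log2 value the nearest genes below that level were Rpl17-ps10 and AW011738, at 9.99 and 9.997 CPM, and the nearest above it were Zfp959 and Inpp4a, at 10.002 and 10.003 CPM. A difference is always the deficient library minus the animal-control library of the same mouse, on the log2 scale, so 1 unit is a doubling. Where 3 values are listed, they are for mice 142114, 232614 and 432614, in that order. An SE of a difference is the moderated standard error of the limma fit over all 9 libraries. It does not measure the spread of the 3 within-mouse differences, and n = 3 mice is the number of mice compared.

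Regulatory T (Treg) cells are CD4 T cells that restrain immune responses and depend on the transcription factor Foxp3. Thpok sets the CD4 fate of T cells in the thymus and restrains CD8 lineage genes, and LRF is a related zinc-finger factor with overlapping roles in T cells. Foxp3 lies on the X chromosome, of which each female cell keeps a single active copy. A female with the Cre-YFP allele on a single X therefore holds YFP+ cells, in which Cre deletes the floxed genes, beside YFP- cells that keep them, and both share a host. This design holds the host constant, but the gates differ: only the YFP- cells were selected on CD25 (gene Il2ra), and the YFP+ and YFP- cells use different X copies.

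The labels were checked first on the targeted genes. Zbtb7b, which encodes Thpok, stood at 0.366, 0.266 and 0.147 CPM in the deficient libraries and at 76.9, 106 and 98.6 CPM in the animal controls. The groups were far apart in each mouse, with a mean difference of -8.58 ± 0.51 (SE, n = 3 mice; adjusted p = 7.29e-05). That mean over 6 libraries lay below the 10 CPM level, so Zbtb7b is not among the 7589 genes. Zbtb7a, which encodes LRF, read 86.3, 78.8 and 103 CPM in deficient and 128, 90.6 and 116 CPM in sufficient cells, with a difference of -0.31 ± 0.24 (SE, n = 3 mice; adjusted p = 0.669). Its groups overlapped, and the position of the deleted part within the transcript is not given in the labels used here, so this value is no check of the deletion.

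The sorted cells carried T cell and Treg transcripts on both sides. Cd3e, a chain of the T cell receptor complex, stood at 1260.2, 1307 and 1197 CPM in deficient and 1378, 1241 and 1408 CPM in sufficient cells. The 10 T cell markers summed to 7455–8121 CPM in deficient and 7495–9076 CPM in animal-control libraries. Summed B cell markers (11 of 14 listed were measured) were at 96.4–277 against 333–368 CPM, and NK cell markers (4 of 10) at 59.3–121 against 24.9–27.0 CPM. Myeloid and dendritic markers (9 of 16) were at 131–173 against 105–163 CPM. Gamma-delta T cell markers (3 of 8) were at 3.75–14.2 against 17.4–30.8 CPM. Erythroid and platelet markers (7 of 11) stayed at 0.838–58.4 against 0.121–0.470 CPM, with the highest sum in the deficient library of mouse 232614. That library alone held Csf1r, a macrophage receptor, above 1 CPM, at 22.2 CPM. Lyz2, another myeloid marker, did not overlap between the groups, although the myeloid sums did. It stood at 9.62, 36.3 and 33.0 CPM in deficient and 3.11, 0.978 and 1.06 CPM in animal-control libraries. Follicular helper T cell markers (9 of 11) were at 359–384 against 556–786 CPM. The B, NK, gamma-delta, erythroid and follicular helper sums did not overlap between the groups, and their part in the gene differences was not tested. Single genes weighed heavily in some sums. Cd74, a B cell marker, stood at 34.8, 157 and 73.1 against 234, 242 and 272 CPM, and the rest of the B cell sum overlapped between the groups. Prf1 made most of the NK sum. The erythroid sums of the other deficient libraries were only 0.838 and 1.14 CPM.

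Within mice, 86 of the 7589 genes passed the limma test at an adjusted p under 0.05, which is 1.13% of them. Deficient cells were higher for 25 genes (0.329%) and lower for 61 (0.804%). All 86 had the same sign in the 3 mice and no overlap between the groups. Among all 7589 genes, 2660 (35.1%) had a like sign and 1404 (18.5%) no overlap. The test that selected the 86 used these same libraries, so their like sign is no independent evidence of repetition. The difference exceeded 1 log2 unit in every mouse for 17 of the genes that rose and 42 of those that fell. An unadjusted p under 0.05 was reached by 1065 genes (14.0%). Because each value is a relative level in a bulk library, fewer cells of a type and less RNA per cell cannot be told apart.

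The number of calls depended on how the mouse enters the fit. Mouse was modelled as a random block over all 9 libraries. With mouse as a fixed term over the 6 libraries and all genes, none passed (0 higher, 0 lower), while 890 had an unadjusted p under 0.05 in that limma fit. When this paired fit was restricted to the 7589 genes, an alternative chosen after seeing the data, 25 were higher and 45 lower, and 54 of the 86 were among these 70. Fits without a single deficient or animal-control library made 43–64 calls, of which 40–52 were among the 86: 45, 56 and 64 without the deficient library of each mouse, and 43, 52 and 49 without its animal control. Of the 86 genes, 33 were called in all 9 fits without 1 library, and 13 in all 3 fits without 1 mouse: Ass1, Capg, Cd82, Cd83, Foxp3, Igsf23, Itgb1, Ly6a, Ly6e, Nrp1, Nt5e, Samhd1 and Trpm1. The other 53 lost their call in at least 1 fit without 1 library, with adjusted p up to 0.178. Icos was called in 7 of those 9 fits, Tnfrsf4 and Tubb5 in 6 each and Cst7 in 5.

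**Figure D1:**
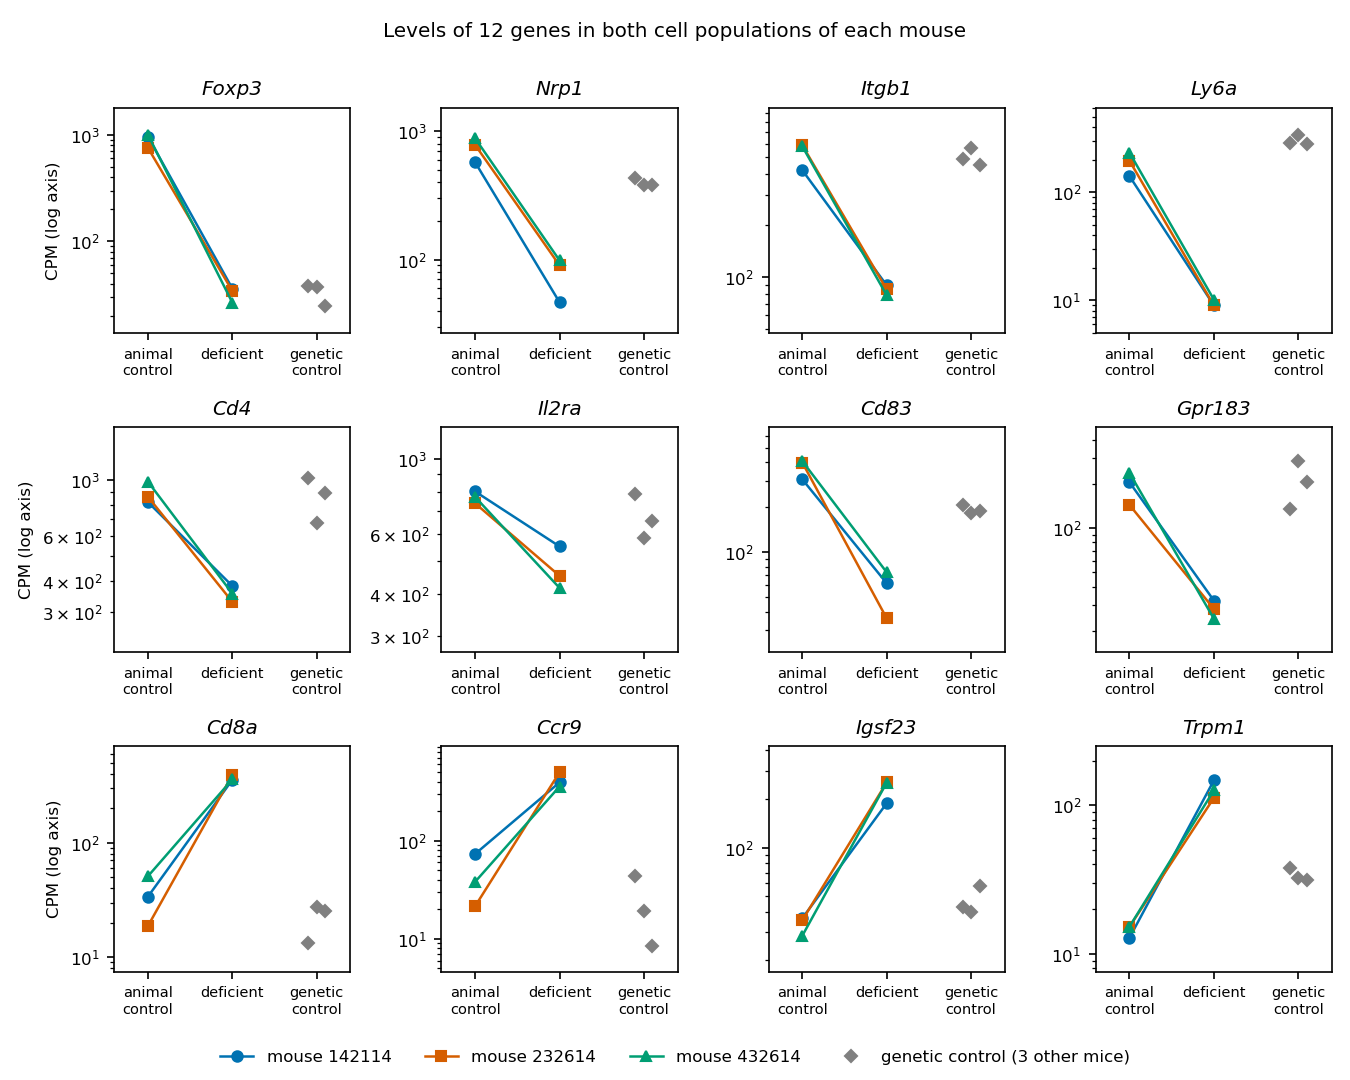
Level (CPM, log axis) of 12 genes in the deficient and the animal-control library of each mouse, with lines joining the libraries of 1 mouse and grey points for the 3 genetic controls. Cd8a rises along every line, from 18.7–50.9 to 354–390.2 CPM, and Nrp1 falls along every line.

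Among surface receptors that fell, the neuropilin Nrp1, a co-receptor for semaphorins that is high on thymus-derived Treg cells, had one of the widest differences. Nrp1 stood at 46.5, 90.1 and 98.5 CPM in deficient cells and 572, 782 and 879 CPM in animal controls. Every deficient library lay below every control, and the mean difference was -3.30 ± 0.26 (SE, n = 3 mice; adjusted p = 4.73e-04). Itgb1, the beta-1 integrin chain that pairs with several alpha chains to bind matrix and VCAM-1, read 89.6, 84.8 and 78.4 CPM against 419.6, 586 and 578 CPM. The 3 within-mouse differences of Itgb1 were -2.23, -2.79 and -2.88, with a mean of -2.63 ± 0.16 (SE, n = 3 mice; adjusted p = 7.29e-05). Itgb7, the chain of the gut-homing integrins alpha-4-beta-7 and alpha-E-beta-7, fell by 0.91 ± 0.10 (SE, n = 3 mice; adjusted p = 0.00318).

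Nrp1 and Itgb1 are neighbours on chromosome 8 (GRCm38): Nrp1 ends at base 128503363, Itgb1 starts at base 128685654, and 0 tested genes lie in the 182291 bases between them. Their promoters, with that of Cd8a, the marker that rose most among CD8 genes, are printed to set side by side the start sites of the members the comparison turns on. They are RefSeq sequences on GRCm38.p6, plus strand, from 250 bases before to 50 bases after the start. Capitals mark matches on either strand to GACCC, the core of the motif known for LRF, or to TGTGGT, that known for RUNX factors.
Cd8a chr6:71373177-71373476: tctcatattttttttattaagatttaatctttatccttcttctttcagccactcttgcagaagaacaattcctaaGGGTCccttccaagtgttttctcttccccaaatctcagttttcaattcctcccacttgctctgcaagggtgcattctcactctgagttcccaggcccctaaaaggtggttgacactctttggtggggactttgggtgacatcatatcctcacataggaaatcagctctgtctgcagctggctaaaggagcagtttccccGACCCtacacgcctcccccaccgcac
Nrp1 chr8:128358823-128359122: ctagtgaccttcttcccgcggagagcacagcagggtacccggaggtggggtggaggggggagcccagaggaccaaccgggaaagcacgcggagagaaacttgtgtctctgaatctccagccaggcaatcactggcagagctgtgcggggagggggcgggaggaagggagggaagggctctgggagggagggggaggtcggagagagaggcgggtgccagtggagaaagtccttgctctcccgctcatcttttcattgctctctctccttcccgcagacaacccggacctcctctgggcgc
Itgb1 chr8:128685404-128685703: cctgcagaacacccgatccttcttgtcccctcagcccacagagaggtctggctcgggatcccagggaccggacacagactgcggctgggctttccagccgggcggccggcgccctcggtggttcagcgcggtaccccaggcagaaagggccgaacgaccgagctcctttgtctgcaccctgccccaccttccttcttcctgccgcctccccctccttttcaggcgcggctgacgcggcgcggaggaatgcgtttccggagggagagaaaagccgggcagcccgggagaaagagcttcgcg
The Cd8a window held 2 matches to GACCC and 0 to TGTGGT, and neither the Nrp1 nor the Itgb1 window held any. RefSeq promoters, several for some genes, were found for 18 of the 25 genes that rose and 49 of the 61 that fell. Over promoters of genes that rose, 57.7% of 26 held GACCC on either strand, against 49.2% of 65 promoters of genes that fell. The share was 52.3% over the 7433 promoters of genes with at least 10 CPM, and 43.9% over all 32851. TGTGGT or its complement was present in 7.69% of promoters of genes that rose, 16.9% of those that fell, 12.2% at 10 CPM or more and 16.8% of all. These matches are letters in a window and say nothing of binding.

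Of the Ly6 family of small membrane-anchored proteins, 3 neighbouring members fell. Ly6a, which encodes the Sca-1 antigen of stem cells and activated T cells, stood at 8.96, 8.95 and 10.1 CPM in deficient and 141, 195 and 232 CPM in sufficient cells. The mean difference was -4.31 ± 0.24 (SE, n = 3 mice; adjusted p = 4.96e-05), and the deficient libraries all lay below the lowest control. Ly6c1, an antigen of resting memory and Treg cells, read 26.5, 10.5 and 15.5 CPM against 101, 133 and 109 CPM, a difference of -2.80 ± 0.34 (SE, n = 3 mice; adjusted p = 0.00430). Ly6c2 is a near-identical copy of Ly6c1 and the reads of the pair may be split between them, so the Ly6c1 value is uncertain. Ly6c2, below the 10 CPM level and not called, lay the other way, with differences of 0.14, 9.44 and 7.59 (adjusted p = 0.296). Ly6e, a family member induced by interferon, fell by 1.08 ± 0.09 (SE, n = 3 mice; adjusted p = 7.50e-04). Ly6e, Ly6a and Ly6c1 follow each other on chromosome 15 with 0 tested genes between them, in gaps of 34972 and 45987 bases. Chromosome 15 held 8 of the genes that fell and 0 that rose among 302 genes, or 2.65% called, against 1.13% of all 7589. Those 8 were these 3 with Ank, Lgals1, Slc48a1, Itgb7 and Prr13. The share of chromosome 15 was the highest of any chromosome, before chromosome 9 (2.13%), and no test was made of it.

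The interferon response list holds these 3 Ly6 genes as its only called members, all lower, among 38 genes at 10 CPM or more. Its median difference was 0.03, beside 0.02 over all 7589 genes. The count of the list is thus a count of Ly6 genes.

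**Figure D2:**
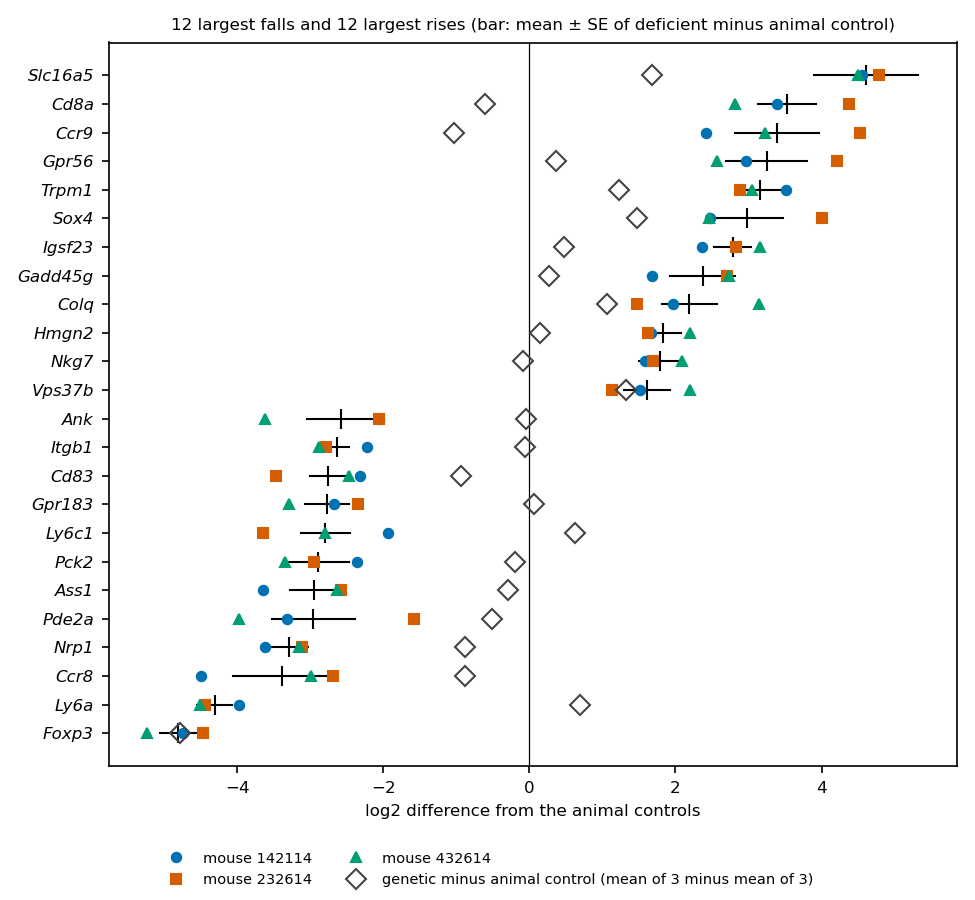
Within-mouse differences (deficient minus animal control, log2 CPM) of the 12 called genes that rose most and the 12 that fell most, 1 point per mouse with the mean. By selection, all 3 points of each gene lie on the same side of 0, from -4.81 on average for Foxp3 to 4.61 for Slc16a5.

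Genes of effector Treg cells, the activated subset found in tissues, had the lowest median among the 16 gene lists. Of 41 listed genes, 25 reached 10 CPM, of which 7 fell and 0 rose, against 1.13% called among all 7589. The median difference was -1.55, and it was -1.74, -1.49 and -1.21 in the 3 mice. In 20 of the 25 the sign was negative in all 3 mice, against 17.3% of all 7589 genes. Lgals1, which encodes the secreted lectin galectin-1, was at 31.3, 30.1 and 37.1 CPM in deficient and 138, 130.1 and 178 CPM in sufficient cells. Its 3 differences were -2.15, -2.11 and -2.27, close to each other, with a mean of -2.17 ± 0.24 (SE, n = 3 mice; adjusted p = 0.00274).

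Other called effector genes had wider spreads. Ahnak, a giant scaffold protein at the membrane, had a difference of -2.46 ± 0.29 (SE, n = 3 mice; adjusted p = 0.00405). Pdcd1, the inhibitory receptor PD-1, fell from 207 ± 64.6 to 50.9 ± 1.93 CPM (mean ± SD, n = 3), with all deficient libraries lower. The co-stimulatory receptor Icos fell from 84.9 ± 10.8 to 22.3 ± 6.43 CPM, a difference of -1.96 ± 0.29 (SE, n = 3 mice; adjusted p = 0.0109). The calcium-binding proteins S100a6 and S100a11 had differences of -2.26 ± 0.41 and -1.64 ± 0.30 (SE; adjusted p = 0.0346 and 0.0339), and were called in 2 and 3 of 9 fits without 1 library. Ccr8, a chemokine receptor of activated Treg cells, read 1.57, 6.70 and 9.85 CPM against 35.6, 43.1 and 78.3 CPM, and its call (adjusted p = 0.0477) passed in 1 of 9 fits without 1 library, with p up to 0.146. Pdcd1 and Icos are also markers of follicular helper T cells, whose marker sum was lower in every deficient library (359–384 against 556–786 CPM). Both genes enter that sum, so it is not separate from their falls. Of the 6 follicular helper markers at 10 CPM or more, with both included, 4 were lower and 1 was higher in all 3 mice.

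Some effector genes that were not called had mean differences as wide. The transcription factors Maf and Batf had mean differences of -3.65 and -3.38 with adjusted p of 0.0507 and 0.0624. Cd44, an adhesion receptor of activated T cells, had -1.93 (adjusted p = 0.0745). Gata3, a factor of type 2 and tissue Treg cells, was at 0.01, and Gzmb, a granule protease, at 1.14 (adjusted p = 0.906). These 5 are given as values from the list and were chosen after their values were seen.

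Of the listed effector genes below the 10 CPM mean, 5 were called, and 3 receptors among them are given. Klrg1, an inhibitory receptor of terminally differentiated cells, stood at 0.0120, 0.0260 and 0.0612 CPM in deficient and 65.8, 53.3 and 28.4 CPM in sufficient cells. Il1rl1, the receptor for interleukin-33, read 0.0248, 0.00457 and 0.0612 CPM against 23.4, 10.4 and 29.0 CPM. For Tigit, an inhibitory receptor, the values were 0.0566, 0.347 and 0.400 CPM against 29.0, 25.9 and 38.0 CPM. All 3 were called lower, with adjusted p of 0.00274, 0.00471 and 0.01003, and no fold is given since the deficient values sit near the lowest value of the table. Among all 13698 genes 148 were called (1.08%), and the 62 of them below 10 CPM were 35 lower and 27 higher. Of the 35, 33 had a mean under 1 CPM in deficient cells, and of the 27, 26 had a mean under 1 CPM in animal controls.

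Resting Treg genes gave another picture: of 23 at 10 CPM or more, 0 rose and 1, Ly6c1, fell. Their median difference was 0.15, with 7 genes higher and 7 lower in all 3 mice. Ccr7, a chemokine receptor that directs cells into lymph nodes, was at 0.70 (adjusted p = 0.0832). S1pr1, the receptor for exit from lymph nodes, was at 0.45 (adjusted p = 0.0776). Il7r and Igfbp4 lay the other way in every mouse, at -1.72 and -1.36 (adjusted p = 0.0618 and 0.112). Of the 23 genes, 12 had an unadjusted limma p under 0.05, against 14.0% of all 7589.

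The 33 core Treg genes at 10 CPM or more moved both ways, with 9 lower and 2 higher and a median of -0.19, against 0.804% lower and 0.329% higher over all 7589. Foxp3 itself read 35.9, 34.1 and 26.5 CPM in deficient and 961, 754 and 999.7 CPM in animal-control cells, a difference of -4.81 ± 0.24 (SE, n = 3 mice; adjusted p = 4.22e-05). The YFP+ genetic controls, which carry intact Thpok and LRF, were as low, at 38.1, 36.9 and 24.8 CPM. Genetic minus animal controls gave -4.78 for Foxp3 (adjusted p = 5.75e-05), so Foxp3 was also lower in YFP+ cells without the deletion. Across the 7589 genes, 5 passed in that contrast (0.0659%), and Foxp3 was the only of the 86 among them. The 2 contrasts share the animal-control libraries.

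Core genes that were lower in deficient cells included Capg, an actin-capping protein. Capg stood at 121, 128 and 144 CPM against 501, 616 and 625 CPM, with a difference of -2.14 ± 0.15 (SE, n = 3 mice; adjusted p = 2.13e-04), and at 388, 407 and 520.0 CPM in genetic controls. Nt5e, the ectoenzyme CD73 that makes adenosine, read 104, 126 and 123 CPM against 450.5, 373 and 465 CPM, a difference of -1.87 ± 0.16 (SE, n = 3 mice; adjusted p = 7.52e-04). Snx14, a sorting nexin, lies 4658 bases past Nt5e on chromosome 9 and fell by 2.41 ± 0.35 (SE, n = 3 mice; adjusted p = 0.0106). The pair converge, and the strand used in counting is not stated, so reads past either end cannot be assigned with certainty. Cd83, a stabiliser of MHC class II and CD86 at the surface, fell by 2.75 ± 0.25 (SE, n = 3 mice; adjusted p = 9.65e-04). It was also the only called gene of the 23 at 10 CPM or more in the T cell receptor-induced list, whose median was -0.43.

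The receptors used to define Treg cells had smaller mean differences. Il2ra, the gene for CD25, was at 551, 451 and 416 CPM in deficient and 800.4, 738 and 771 CPM in sufficient cells, a difference of -0.71 ± 0.13 (SE, n = 3 mice; adjusted p = 0.0404). It was called in 3 of 9 fits without 1 library, with adjusted p up to 0.137. Only the sufficient cells were gated on CD25, so this difference and the gate cannot be told apart. The genetic controls, which were not gated on CD25, stood at 788, 584 and 657 CPM. Tnfrsf4 (OX40), a co-stimulatory receptor, fell by 1.19 ± 0.17 (SE, n = 3 mice; adjusted p = 0.0109), and Folr4, the folate receptor family member of Treg cells, fell by 0.86 ± 0.13 (SE, n = 3 mice; adjusted p = 0.0109). Ikzf2, the factor Helios, had a difference of -0.48 (adjusted p = 0.213), Ctla4 one of 0.30 (adjusted p = 0.743) and Tnfrsf18 (GITR) one of -0.66 (adjusted p = 0.119). Lrrc32, the surface docking receptor for latent TGF-beta, was at 0.16 (adjusted p = 0.825).

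The core genes that rose were Ecm1 and Cd81. Ecm1, a secreted matrix protein of activated T cells, read 860.2, 782 and 793 CPM in deficient and 445, 396 and 381 CPM in sufficient cells, a difference of 0.997 ± 0.135 (SE, n = 3 mice; adjusted p = 0.00825). Cd81, a tetraspanin, rose by 0.83 ± 0.12 (SE, n = 3 mice; adjusted p = 0.0103), while its tetraspanin relative Cd82 fell by 1.51 ± 0.15 (SE, n = 3 mice; adjusted p = 0.00153). For Cd81, genetic minus animal controls was -0.72 (adjusted p = 0.114).

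Among the 16 gene lists, CD8 lineage and cytotoxic genes had the highest median, 1.10 over the 14 genes at 10 CPM or more. Of these 4 were higher and 1 was lower, against 0.329% and 0.804% over all 7589. The medians in the 3 mice were 0.41, 1.19 and 1.37. Cd8a, the CD8 alpha chain, stood at 354, 390.2 and 357 CPM in deficient and 33.8, 18.7 and 50.9 CPM in sufficient cells. No library overlapped, and the difference was 3.53 ± 0.39 (SE, n = 3 mice; adjusted p = 0.00284). Cd8b1, the beta chain, read 237, 195 and 235 CPM against 30.6, 86.4 and 29.5 CPM, a difference of 2.37 ± 0.52 (SE) that did not pass (adjusted p = 0.0749). Cd4, by contrast, fell from 819.6, 860.2 and 988 CPM to 381, 329 and 355 CPM, a difference of -1.32 ± 0.15 (SE, n = 3 mice; adjusted p = 0.00274).

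The other CD8-list genes that rose were a homing receptor and granule proteins. Ccr9, a receptor for the gut and thymus chemokine CCL25, read 393, 497 and 356 CPM against 73.3, 21.5 and 38.1 CPM, and its difference was 3.39 ± 0.58 (SE, n = 3 mice; adjusted p = 0.0245). It was called in 4 of 9 fits without 1 library, with adjusted p up to 0.0903. Nkg7, a cytotoxic granule membrane protein, rose by 1.79 ± 0.29 (SE, n = 3 mice; adjusted p = 0.0205), and Ctsw, the protease cathepsin W of killer cells, by 1.59 ± 0.25 (SE, n = 3 mice; adjusted p = 0.0153). Nkg7 was called in 3 and Ctsw in 5 of 9 fits without 1 library. Cst7 (cystatin F), an inhibitor of granule proteases, fell by 1.75 ± 0.30 (SE, n = 3 mice; adjusted p = 0.0242). Prf1, the pore protein perforin, was at 50.3, 84.2 and 109 CPM against 15.9, 21.8 and 19.6 CPM, with 2.03 (adjusted p = 0.0926). The transcription factor Runx3, which promotes the CD8 fate, was at 101, 90.3 and 97.1 CPM against 91.7, 53.9 and 66.1 CPM (difference 0.48, adjusted p = 0.611). Genetic controls had 17.9, 19.7 and 34.9 CPM of Runx3, below both groups (genetic minus animal -1.57, adjusted p = 0.230). Deficient minus genetic controls gave 2.05 for Runx3 in the same limma fit (adjusted p = 0.0241). The NK marker sum did not overlap between the groups either, at 59.3, 91.6 and 121 against 26.8, 27.0 and 24.9 CPM. Prf1 made most of that sum in every library, so the sum is no separate measure of NK cells. Its other measured members, Klrb1c, Gzma and Eomes, were below 10 CPM, and none had a like sign in the 3 mice. The part of NK cells in these rises was not tested.

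**Figure D3:**
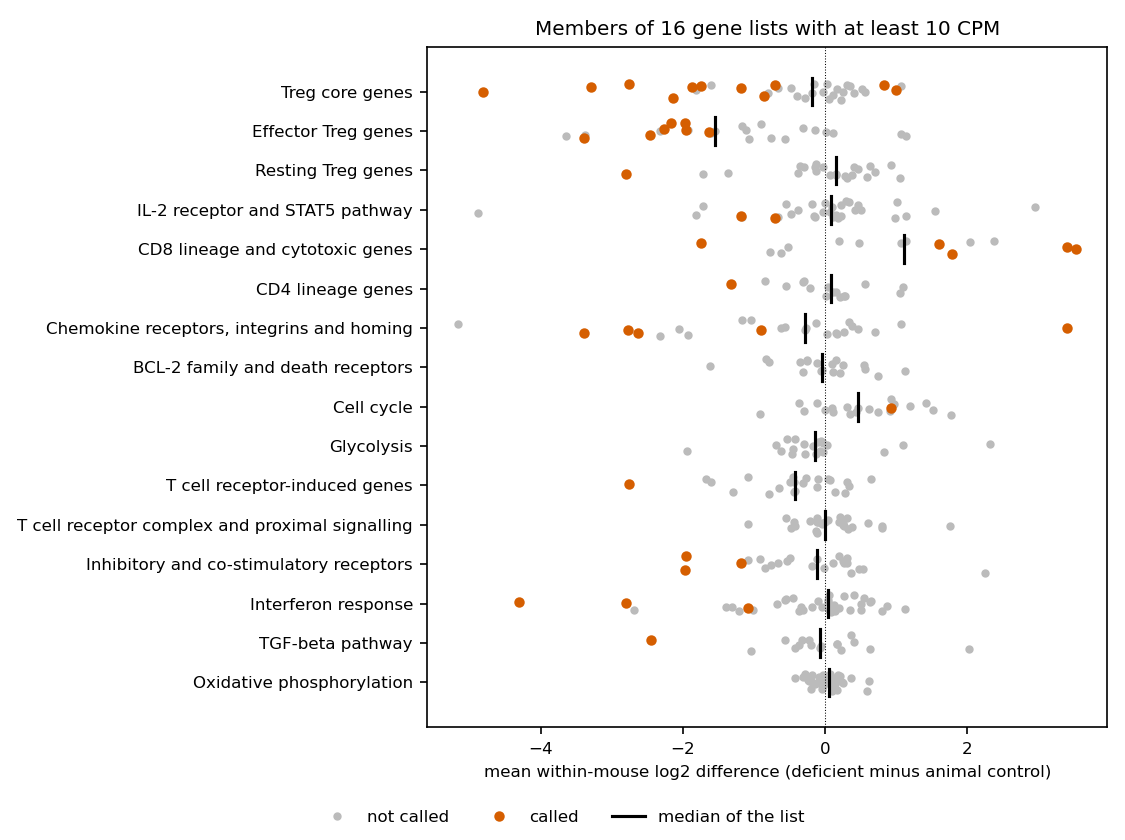
Mean within-mouse difference (log2 CPM) of every member at 10 CPM or more in each gene list, with called members marked and the list median as a bar. The effector Treg list has the lowest median (-1.55) and the CD8 and cytotoxic list the highest (1.10), beside 0.02 over all 7589 genes.

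Several of the largest rises lay outside the lists. Slc16a5, of the monocarboxylate transporter family, read 67.2, 48.6 and 122 CPM in deficient and 2.87, 1.76 and 5.42 CPM in sufficient cells, a difference of 4.61 ± 0.71 (SE, n = 3 mice; adjusted p = 0.0143). Trpm1, a cation channel best known from the retina, stood at 147, 112 and 126 CPM against 12.8, 15.2 and 15.2 CPM, with a difference of 3.15 ± 0.28 (SE, n = 3 mice; adjusted p = 7.52e-04). Genetic controls had 37.6, 32.4 and 31.4 CPM of Trpm1, between the groups (genetic minus animal 1.23, adjusted p = 0.323). Igsf23, an immunoglobulin superfamily member, read 188, 253 and 253 CPM against 36.5, 35.5 and 28.5 CPM, a difference of 2.78 ± 0.25 (SE, n = 3 mice; adjusted p = 8.40e-04).

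Gpr56, an adhesion receptor of cytotoxic lymphocytes, had a difference of 3.25 ± 0.55 (SE, n = 3 mice; adjusted p = 0.0242), and Sox4, a transcription factor of immature lymphocytes, one of 2.97 ± 0.50 (SE, n = 3 mice; adjusted p = 0.0242). Gadd45g, a stress-response protein, rose by 2.37 ± 0.44, Colq, the collagen-like tail of acetylcholinesterase, by 2.19 ± 0.37, and Hmgn2, a nucleosome-binding protein, by 1.83 ± 0.25 (SE; adjusted p = 0.0383, 0.0242 and 0.00864). Of 9 fits without 1 library, Slc16a5 was called in 5, Gpr56 in 3, Sox4 in 6, Colq in 5 and Hmgn2 in 8. Vps37b, a subunit of the ESCRT-I sorting complex, rose by 1.61 ± 0.32 (SE, n = 3 mice; adjusted p = 0.0479). Neither Gadd45g nor Vps37b was called in any fit without 1 library (0 of 9 each), with adjusted p up to 0.127 and 0.178.

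Ass1, Pck2, Pde2a and Ank were among the 12 genes that fell most. Ass1, argininosuccinate synthase, which makes the precursor of arginine from citrulline, stood at 9.30, 20.5 and 18.2 CPM in deficient and 116, 122 and 113 CPM in sufficient cells. The difference was -2.95 ± 0.32 (SE, n = 3 mice; adjusted p = 0.00274), with genetic controls at 80.2, 108 and 101 CPM. Pck2, the mitochondrial phosphoenolpyruvate carboxykinase, read 7.16, 8.60 and 4.78 CPM against 36.8, 66.7 and 48.8 CPM, a difference of -2.89 ± 0.42 (SE, n = 3 mice; adjusted p = 0.0107). Pde2a, a phosphodiesterase of cyclic nucleotides, and Ank, a pyrophosphate exporter, had differences of -2.96 ± 0.57 and -2.58 ± 0.46 (SE; adjusted p = 0.0433 and 0.0326). Pde2a was called in 1 and Ank in 3 of 9 fits without 1 library. Slc25a4, the mitochondrial ADP/ATP carrier, rose, from 229.8, 245 and 285 CPM to 549, 586 and 657 CPM, a difference of 1.24 ± 0.16 (SE, n = 3 mice; adjusted p = 0.00657).

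The fixed lists of energy metabolism held 0 called genes. Over all 7589 genes, 1.13% were called and 14.0% had an unadjusted p under 0.05. Of 40 genes of oxidative phosphorylation, 0 rose and 0 fell in limma (4 had an unadjusted p under 0.05), with a median of 0.05 and single genes between -0.43 and 0.62. The 20 glycolysis genes had 0 calls and a median of -0.15. Of them 6 had an unadjusted limma p under 0.05, a larger share than over all 7589. In all 3 mice 8 were lower and 2 higher, against 17.3% and 17.8% of all 7589. In the fixed-mouse fit of the 7589 genes, 1 glycolysis gene and 1 T cell receptor complex gene passed. That glycolysis gene was Pdk1 (adjusted p = 0.0398 there). In the limma fit over all 9 libraries Pdk1 had 1.09 (adjusted p = 0.116), the lowest adjusted p of its list, and it was higher in every mouse. Eno1, a glycolytic enzyme, had -0.30 (adjusted p = 0.123), and Ndufv1, a complex I subunit, 0.59 (adjusted p = 0.316).

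Cells that share a host also share its supply of interleukin-2, the cytokine Treg cells need, so genes of that pathway, of survival and of division were read out side by side. The IL-2 receptor and STAT5 list had 2 lower (Il2ra and Tnfrsf4) and 0 higher of 32 genes, with a median of 0.08, against 0.804% lower and 0.329% higher over all 7589. An unadjusted limma p under 0.05 was reached by 13 of the 32, against 14.0% of all 7589. In all 3 mice 10 of the 32 were lower and 7 higher, against 17.3% and 17.8%. Il2rb, the signalling beta chain, was at 1629, 1685 and 1455 CPM against 1707, 1643 and 1514 CPM (difference -0.03, adjusted p = 0.942), and Il2rg, the common gamma chain, was at -0.16 (adjusted p = 0.536). Stat5a and Stat5b, the factors that carry the signal, were at 0.50 and 0.09 (adjusted p = 0.612 and 0.940). Cish, a feedback inhibitor induced by STAT5, was at 0.22 (adjusted p = 0.740), and Socs2, another STAT5 target, at -1.81 (adjusted p = 0.101). Il7r and Il10ra, also on the list and lower in every mouse, were at -1.72 and -4.89 (adjusted p = 0.0618 and 0.213). The 3 differences of Il10ra were uneven, at -0.55, -4.13 and -9.98. Its deficient libraries read 36.7, 4.68 and 0.158 CPM, so its mean rests largely on low values.

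Of the 19 BCL-2 family and death receptor genes at 10 CPM or more, 0 passed in limma (3 had an unadjusted p under 0.05), with a median of -0.05. Over all 7589 genes these shares were 1.13% and 14.0%, so the list was at background. Bcl2, which protects from apoptosis, was at 0.15 (adjusted p = 0.838), and its relative Mcl1, on which Treg cells depend, at 0.11 (adjusted p = 0.802). Bcl2l11, the death-promoting BIM, read 143, 146 and 121 CPM against 103, 118 and 67.0 CPM, higher in every mouse, with a difference of 0.54 (adjusted p = 0.517).

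Cell cycle genes had 1 call, a rise, among 21, and a median of 0.47. The call was Tubb5, a beta-tubulin, at 726, 795 and 808 CPM against 369, 453 and 404 CPM, a difference of 0.93 ± 0.14 (SE, n = 3 mice; adjusted p = 0.0128). In all 3 mice 7 of the 21 were higher and 1 was lower, against 17.8% and 17.3% of all 7589 genes. The median was 0.23, 0.72 and 0.30 in the 3 mice, and each of these exceeded the median over all 7589 genes, which lay between -0.01 and 0.02. Mki67, the proliferation marker, was at 13.0, 18.7 and 0.00457 CPM in deficient and 1.11, 4.66 and 4.06 CPM in sufficient cells, and the last deficient library sat at the lowest value of the table. The table gives transcript levels and no cell numbers, so the share of each population in a mouse was not analysed here.

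Against 1.13% called over all 7589 genes, the counts of calls in the T cell receptor complex and TGF-beta lists were at or near background. T cell receptor complex genes had 0 calls among 27 in limma, with a median of -0.003. Of the 27, 6 had an unadjusted limma p under 0.05, against 14.0% of all 7589. In all 3 mice 11 of the 27 were higher and 6 lower, against 17.8% and 17.3%, so like signs were more frequent than over all genes. TGF-beta pathway genes had 1 call among 17. That gene was Furin, the convertase that processes TGF-beta precursors, with a difference of -2.45 ± 0.47 (SE, n = 3 mice; adjusted p = 0.0429) and a call in 2 of 9 fits without 1 library. Of 23 inhibitory and co-stimulatory receptors, 3 fell (Pdcd1, Icos and Tnfrsf4) and 0 rose, with a median of -0.12. In the homing list, 4 of 25 genes fell and 1 rose, with a median of -0.28. Gpr183, the oxysterol receptor that guides lymphocytes in lymphoid tissue, was among them at 32.1, 28.2 and 24.2 CPM against 206, 144 and 238 CPM, a difference of -2.78 ± 0.30 (SE, n = 3 mice; adjusted p = 0.00272). The 4 that fell were Itgb1, Gpr183, Itgb7 and Ccr8, and the one that rose was Ccr9.

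**Figure D4:**
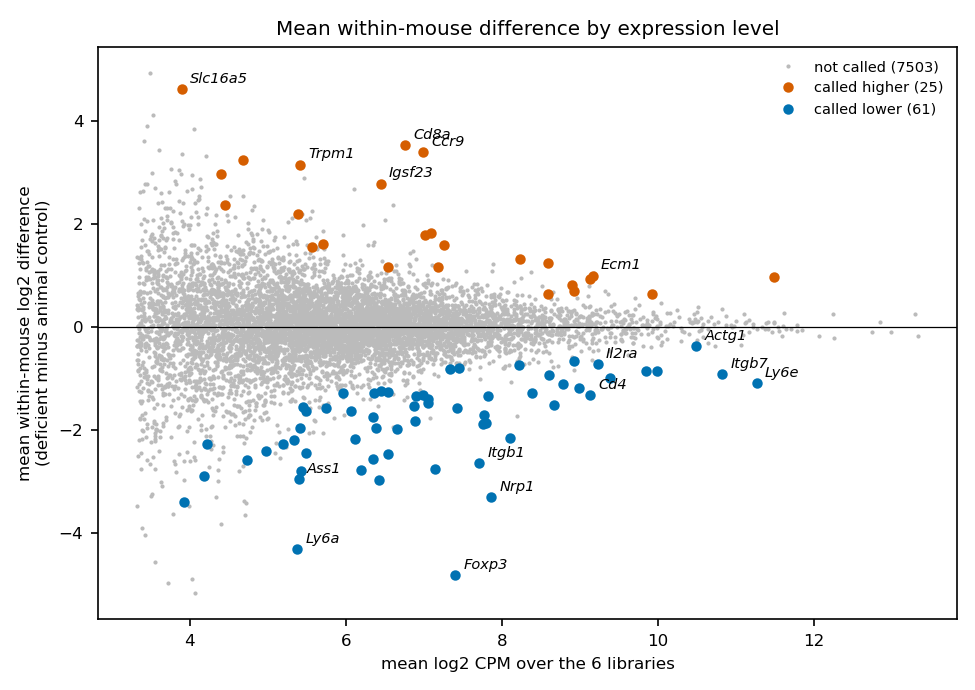
Mean within-mouse difference (log2 CPM) of each of the 7589 genes against its mean level over the 6 libraries, with the called genes marked. The cloud narrows with level: the median SD between mice is 0.845 at 10–50 CPM and 0.215 at 200 CPM or more.

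How well the mice repeated each other depended on the level of a gene. Over the 7589 genes, Pearson's r between the differences of 2 mice was 0.174–0.223, across genes, which are not independent replicates. For the 918 genes at 200 CPM or more it was 0.555–0.630, for the 3130 at 50–200 CPM 0.255–0.273, and for the 3541 at 10–50 CPM 0.146–0.20. The share called followed the same order, at 3.38%, 1.09% and 0.593%. Mouse 142114 had the narrowest spread of differences (SD 0.966 over genes), before 432614 (1.09) and 232614 (1.18). Differences over 1 were counted for 781, 1017 and 870 genes in the 3 mice, and under -1 for 757, 933 and 840.

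**Figure D5:**
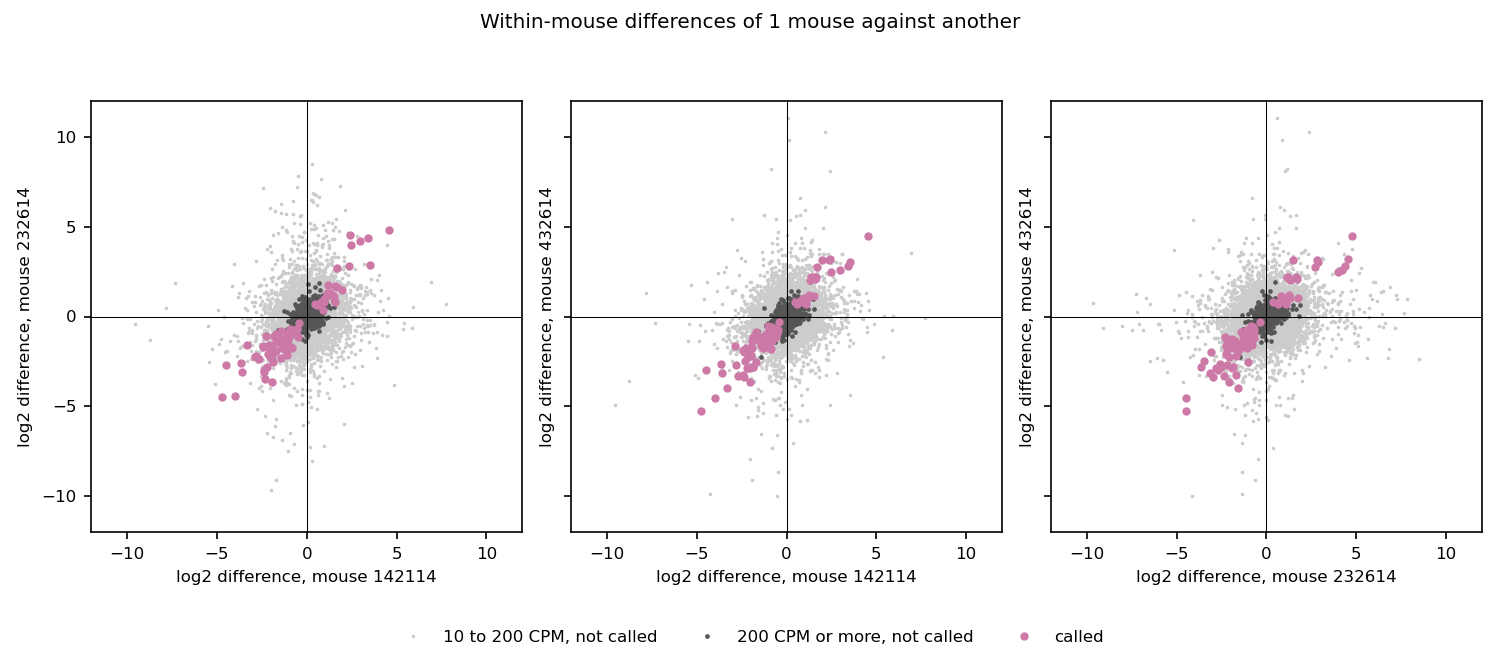
Within-mouse differences (log2 CPM) of the 7589 genes in one mouse against another, for the 3 pairs of mice, with called genes marked. Called genes, selected on these same libraries, lie in the quadrants of a like sign, while all genes together give r of 0.174–0.223.

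The called genes with the most even differences between mice were Slc25a4, Fxyd5, Ahcyl2, Actg1 and Ecm1. Slc25a4 had differences of 1.26, 1.26 and 1.21, and Ahcyl2, a regulator of inositol trisphosphate receptors, had 0.59, 0.64 and 0.67. Fxyd5, a regulator of the sodium pump and of adhesion, had a standard deviation of only 0.04 between mice. Actg1, cytoplasmic gamma-actin, fell by 0.37 ± 0.05 (SE, n = 3 mice; adjusted p = 0.0108), the smallest fall among called genes. At the other end, Fpgt, Gzf1, Polr3b, Wdr81 and Zfc3h1 were chosen as the genes whose differences ranged most, and are given as a description. Gzf1, a zinc-finger factor, read 28.8, 7.29 and 42.5 CPM in deficient and 24.1, 56.2 and 3.06 CPM in sufficient cells. Polr3b, a subunit of RNA polymerase III, read 56.3, 66.8 and 17.9 CPM against 42.6, 1.97 and 55.8 CPM. The lowest library was the animal control of mouse 432614 for Gzf1 and that of mouse 232614 for Polr3b.

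Because YFP+ and YFP- cells use different X copies, genes of that chromosome were counted apart. Of 225 X-linked genes at 10 CPM or more, 2 fell (Foxp3 and Sh3bgrl) and 0 rose. Within 5 Mb of Foxp3, 23 other genes reached 10 CPM and 0 of these were called. On the autosomes, 24 rose and 59 fell of 7326 (1.13%). Yam1, a symbol with no coordinates in the annotation used, stood at like levels in both YFP+ groups: deficient cells were at 4363, 4670.3 and 3156 CPM, genetic controls at 3623, 4052 and 4363 CPM and animal controls at 2042, 2198 and 1930.3 CPM. Its difference within mice was 0.96 ± 0.13 (SE, n = 3 mice; adjusted p = 0.00742), and it was named after its values were seen.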

How the data were processed

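Column-purified RNA of sorted cells was made into libraries with SMARTer Ultra Low Input and Nextera XT kits, per the labels. The processing notes of the submitters name bcl2fastq 1.8.4, STAR 2.4.0h, mm10 and limma without a version. The counting tool, annotation and strand are not named in the labels or notes. The authors deposited log2 values, read as log2 CPM because their linear values sum to 999252–999256 per library. All 9 libraries share the lowest (-7.77) and highest (13.42) value, and 8.00–11.4% of a library's genes sit at the lowest. Identical values also recur between libraries, such as 1251.7 CPM for Actg1 in the deficient libraries of mice 142114 and 232614. Scaling to a total alone does not give this, and the normalization used is not named. Depth is unknown, so counting intervals are not given. Of 13702 gene entries, 4 were duplicates and were dropped.

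Without a pseudocount, limma 3.58.1 (R 4.3.3, statmod 1.5.0, data.table, version 1.17.8) was fitted with a trend to the group means over 9 libraries, with mouse as a random block (correlation 0.0493). Tests were two-sided with Benjamini-Hochberg adjustment over 13698 genes. The ± values of differences are moderated standard errors of this fit, not computed from the 3 within-mouse differences alone. Same-numbered libraries come from the same animals, per the labels. Their deviations from group means correlated at 0.0515, 0.00853 and 0.0260, against -0.0343 to 0.00717 between different mice. An exact sign-flip test over 3 mice cannot go below p = 0.25, so it was not used. GENCODE M21 (GRCm38) gave coordinates for 7551 of the 7589 genes. The procedure was tested on simulated data. Alternatives changed the block, trend, filter, scaling and libraries.

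The members, the 16 gene lists, the 7 marker lists and the tests were chosen with earlier results of these data known. The naming rule took Zbtb7b, Zbtb7a, Cd4, Cd8a, Cd8b1, Runx3, Foxp3 and Il2ra, then the 12 called genes that rose most and the 12 that fell most. It added the 5 called genes with the most even differences, up to 5 called members of each list by adjusted p (its 2 lowest p where none was called) and the 5 genes that ranged most between mice. It left out predicted genes, Rik clones and receptor segments, and some listed genes are not reported here. Other genes, such as Klrg1, Il1rl1, Tigit, Snx14, Cd82 and pathway members that did not pass, were named after their values were seen.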

Additional observations from a re-analysis of the deposited data

How the results depend on the processing

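No call reversed its sign under any alternative run. Counts of genes higher and lower (25 and 61) stayed within 1.5 times without the replicate block (21 and 52), with only the 7589 genes fitted (30 and 73), on log2(CPM + 1) (28 and 68), and with the level set at 1 CPM (28 and 70) or 50 CPM (18 and 47). Libraries shifted to a common median gave 25 and 62, but they already share their range and sum, so this tests little. The counts moved further with a fixed replicate block over the 6 libraries (0 and 0), the 6 libraries alone with a random replicate block (14 and 27), and no trend (6 and 21). Restricted to the 7589 genes, the paired fit with the fixed replicate block gave 25 and 45. Fits without 1 library or 1 mouse gave 2–25 higher and 15–53 lower. Without mouse 142114 the counts were 2 and 15, without 232614 5 and 21, and without 432614 6 and 19. Adjusted p of the 86 genes reached 0.178 without 1 library and 0.285 without 1 mouse. Genes of a like sign in all mice numbered 2660, or 3317 (33.9%) at 1 CPM and 1508 (37.3%) at 50 CPM, where fewer genes enter. The causes of the other shifts were not tested.

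With 3 mice, a fixed block leaves few residual degrees of freedom. Depth is unknown, and genes at 10–50 CPM had a median SD between mice of 0.845, so a difference of 1 log2 unit is within reach of the spread there.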
